A study of Mus musculus with 22 samples.

Results

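The effect of antibiotics on messenger RNA of the mouse nucleus accumbens was estimated across both injection treatments of the study. All 22 libraries entered: 11 whose titles carry Abx and 11 whose titles carry H2O, out of 22 in the series, with the injection as an additive term and no interaction. All mice were male C57BL/6J, conventionally raised and 7 to 9 weeks old. The 4 groups were water with saline (6 libraries, intact microbiome), antibiotics with saline (6, depleted microbiome), water with morphine (5, intact) and antibiotics with morphine (5, depleted). Morphine was given at 20 mg/kg per day for 7 days. The antibiotics are described as nonabsorbable and were used to deplete gut bacteria. They are not named in the labels used here, and no dose or duration is given for them.

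The nucleus accumbens is the ventral part of the striatum and takes part in reward and motivation. Most of its neurons are GABAergic projection neurons that carry dopamine receptors and the opioid peptide precursors. They are surrounded by oligodendrocytes, which make myelin, by microglia, the resident immune cells of the brain, and by astrocytes and blood vessels. Gut bacteria produce short-chain fatty acids and other metabolites, and animals without them are known for altered microglia, myelination and stress hormone responses. Glucocorticoids, the stress hormones of the adrenal gland, act through a receptor that binds DNA and raises the transcription of a recurrent set of target genes in most tissues.

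Gene counts ran from 9357299 to 15330947 per library, with no difference by antibiotic past the threshold (exact permutation within injection, two-sided, p = 0.483). Striatal markers were present in every group: all 28 projection neuron markers passed the low-count filter, and their summed level ran from 8890 to 20010 CPM, a gene's counts relative to the scaled total of its library, over the 22 libraries. Of 12 erythrocyte and choroid plexus markers 3 were tested; hemoglobin genes and the choroid plexus marker Ttr were not among them. The share of counts outside annotated genes was 9.89% ± 0.57 in water libraries and 11.1% ± 1.80 in antibiotic libraries (SD, n = 11 each; exact permutation p = 0.0193, adjusted over 4 library measures 0.0770). When antibiotic-saline library 6 and antibiotic-morphine library 4, the highest in the nuclear RNA Malat1, were left out, the difference fell from 1.18 to 0.57 percentage points (exact permutation p = 0.0697). Nothing in the labels says that each library came from a separate animal, so p-values measure the spread between libraries.

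Antibiotics changed 2931 of 14564 tested genes (20.1%) at a Benjamini-Hochberg adjusted p under 0.05 in edgeR's quasi-likelihood test. Of these, 1356 were higher (9.31% of tested genes) and 1575 lower (10.8%). Most changes were small. The median size among called genes was 0.22 on the log2 scale, and 216 changed by 1.5-fold or more, 143 of them higher and 73 lower. A 2-fold change was reached by 29 higher and 5 lower genes. The median log2 change of all tested genes was 0.00, and none of the scalings tried moved it by 0.1.

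Of the 2931 called genes, 2922 had the same sign under saline and under morphine, which the additive call itself favours, since it was fitted on the same libraries. Among all tested genes with an unadjusted p under 0.05 in both injections, 1271 had the same sign (556 higher, 715 lower) and 29 opposite signs. For 511 of the higher genes every antibiotic library lay above the mean of the water libraries of its injection, and for 675 of the lower genes every one lay below it. Over all tested genes 1298 (8.91%) had all 11 antibiotic libraries on 1 side. A stricter criterion asked that no antibiotic library overlap any water library within either injection, in the same direction. It was met by 110 genes (0.755% of tested genes), 34 higher and 76 lower, and all 110 were called. A single gene, Wdr82, had no overlap in either injection but in opposite directions, higher under saline and lower under morphine; it was singled out after its values were seen.

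The sizes were not equal. Contrasts within a 4-group model called 205 genes (1.41%) under saline and 2621 (18%) under morphine. These contrasts share no library with each other, but both share all of their libraries with the additive estimate. They had 151 genes in common, 47 higher and 104 lower and all of the same sign, which were 73.7% of the saline list and 5.76% of the morphine list. Among called genes the median size was 0.17 under saline and 0.28 under morphine, against 0.09 and 0.14 over all tested genes. The change was larger under morphine for 2301 (78.5%) of the called genes. Across genes, which are not independent replicates, the changes under saline and morphine had a Pearson r of 0.46 and a Spearman rho of 0.47. The difference between the changes was itself called for 68 genes (0.467%), and 44 of those were also called for the additive effect. The saline count was sensitive to single libraries. It fell to 48 without antibiotic-saline library 4 and rose to 409 without antibiotic-saline library 1. It also moved by more than 1.5 times without antibiotic-saline libraries 5 (92) and 6 (96), and without water-saline libraries 3 (59), 4 (136), 5 (110), 8 (131) and 9 (118). The count of differing genes ran from 23, without antibiotic-morphine library 3, to 100, without antibiotic-morphine library 5.

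**Figure D1:**
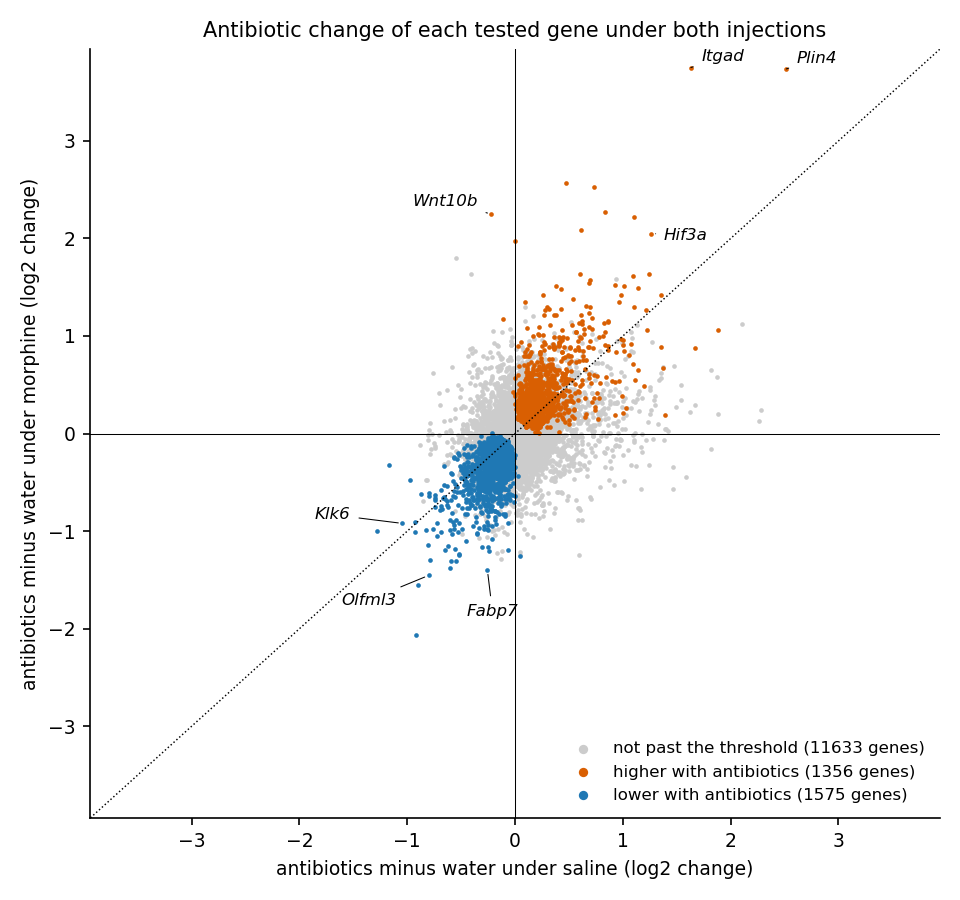
Log2 change with antibiotics under saline (horizontal axis, 6 against 6 libraries) and under morphine (vertical axis, 5 against 5) for each of the 14564 tested genes, coloured by the call of the additive effect. Of the 2931 called genes 2922 lie in the upper right or lower left, and 2301 lie farther from 0 on the morphine axis; Wnt10b, in the upper left, and Fabp7 were examples of genes with a small saline value.

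Most genes of the glucocorticoid-responsive list were higher. Of 31 tested members of the list, 25 rose and none fell, with a median log2 change of 0.36 (0.21 under saline, 0.50 under morphine), against 0.00 over all tested genes. Among all tested genes 9.31% were called higher. The list was drawn up with earlier results of these data known, so its direction is a description. The mean level of the list, centred per gene, separated the groups completely within each injection. Under saline it ran from -0.34 to -0.19 in water and from -0.09 to 0.28 in antibiotic libraries. Under morphine it ran from -0.40 to -0.17 and from 0.28 to 0.58.

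Plin4, a coat protein of lipid droplets, changed most. Its level under saline was 1.17, 3.05 and 4.46 CPM in water libraries (lowest, median and highest) and 5.02, 10.5 and 40.1 with antibiotics. Under morphine the 5 water libraries held 2.32, 4.26, 4.82, 4.15 and 5.13 CPM and the 5 antibiotic libraries 51.4, 47.6, 59.7, 66.7 and 55.8. Every antibiotic library was above every water library of its injection, and the morphine libraries with antibiotics were above all others. The log2 change was 3.17 ± 0.33 (SE; adjusted p = 7.09e-06), with 2.52 ± 0.43 under saline and 3.74 ± 0.43 under morphine, whose difference did not pass the threshold (log2 1.22 ± 0.63).

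Hif3a, a regulator of the response to low oxygen and a known glucocorticoid target, ran from 3.41 to 6.58 CPM (median 4.42) in water libraries and from 5.70 to 29.2 (median 15.8) in antibiotic libraries. Within each injection the groups did not overlap. Its log2 change was 1.67 ± 0.18 (adjusted p = 5.87e-06). Rasd1, a small GTPase induced by dexamethasone, ran from 5.14 to 8.37 CPM with water and from 7.36 to 25.4 with antibiotics, with a change of 1.20 ± 0.15 (adjusted p = 1.62e-05) and of similar size under saline (1.11) and morphine (1.30). Sult1a1, a sulfotransferase, rose by 1.10 ± 0.15 (adjusted p = 4.46e-05). Klf15, a transcription factor that glucocorticoids induce, rose from 26.4 ± 2.47 to 36.8 ± 4.80 CPM (SD, n = 11 each; log2 change 0.48 ± 0.06, adjusted p = 3.48e-05). For Rasd1 and Klf15 no antibiotic library overlapped a water library of the same injection, while Sult1a1 overlapped under saline.

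Some members rose more under morphine. Fkbp5, a co-chaperone that restrains the glucocorticoid receptor and is among its best known targets, had values of 55.2 to 71.2 CPM with water. With antibiotics it ran from 69.3 to 105.5 under saline and from 108 to 163 under morphine. The log2 change was 0.69 ± 0.12 (adjusted p = 0.000407), with 0.32 in saline and 1.11 in morphine libraries, a difference that was called (adjusted p = 0.0206). Map3k6, Arrdc2 and Cdkn1a were the other members whose difference was called. Cdkn1a, a cell cycle inhibitor, changed by 0.09 ± 0.13 under saline and by 1.35 ± 0.14 under morphine, so that the morphine libraries made up most of its additive value of 0.68 ± 0.17. Zbtb16 and Tsc22d3, a transcriptional repressor and a leucine zipper protein that mediates anti-inflammatory effects, rose by 1.34 ± 0.25 and 0.38 ± 0.09 without such a difference. Fkbp5, Arrdc2, Zbtb16 and Tsc22d3 were chosen for description after their values were seen. The 6 members not called were Mt1, Mt2, Tsc22d1, Gpd1, Dusp1 and Ddit4.

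The sequences upstream of 3 called members are shown because each holds a match to the core of the glucocorticoid response element, the palindrome to which the receptor dimer binds. They are taken from RefSeq (GRCm38.p6), run 5′ to 3′ on the gene's strand from 250 to 51 bases before the annotated start, and carry matches in capitals, searched on both strands. One motif is GNACA, any 3 bases, then TGTNC (the core); the other is the hexamer AGAACA. Where matches overlap, as in Sgk1, the capitals cover their union. The windows are chr10:21993640-21993839 on the plus strand for Sgk1, chr4:133240568-133240767 on the plus strand for Map3k6 and chr14:8309830-8310029 on the minus strand for Fam107a.
Sgk1: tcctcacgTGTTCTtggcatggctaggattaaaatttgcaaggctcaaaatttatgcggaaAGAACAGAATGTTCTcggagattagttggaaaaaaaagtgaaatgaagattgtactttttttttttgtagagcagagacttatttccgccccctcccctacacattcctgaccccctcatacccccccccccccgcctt
Map3k6: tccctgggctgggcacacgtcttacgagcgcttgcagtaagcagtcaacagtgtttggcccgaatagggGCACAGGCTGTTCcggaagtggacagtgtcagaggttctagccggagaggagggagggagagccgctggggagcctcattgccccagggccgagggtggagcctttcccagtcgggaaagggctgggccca
Fam107a: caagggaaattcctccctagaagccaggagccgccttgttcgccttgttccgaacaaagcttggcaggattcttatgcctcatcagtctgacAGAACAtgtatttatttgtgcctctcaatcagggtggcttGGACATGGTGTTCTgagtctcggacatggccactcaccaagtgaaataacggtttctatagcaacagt
The core match began 188, 181 and 118 bases before the start. Sgk1 and Fam107a have several annotated starts, and these windows belong to 1 of them.

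Sgk1, a kinase that regulates ion channels, had 74.1 CPM (median; 61.6 to 113) in water and 138 (103 to 221) in antibiotic libraries, a log2 change of 0.82 ± 0.13 (adjusted p = 0.000257). Map3k6, a stress-activated kinase, rose by 0.77 ± 0.13 (adjusted p = 0.000380), with 0.31 under saline and 1.27 under morphine (difference adjusted p = 0.0206). Fam107a, an actin-binding protein of stress responses, rose by 0.25 ± 0.05 (adjusted p = 0.00157). Under morphine the antibiotic libraries of all 3 genes lay above all water libraries, and under saline the groups overlapped. In windows of 250 bases the core was found for 38 of the 10910 tested genes with a promoter in the table (0.348%). It was found for 12 of 1026 called higher (1.17%), 3 of 1188 called lower (0.253%) and 3 of the 22 called list members with a promoter (13.6%). The hexamer was found for 12.8%, 12.2%, 12.9% and 22.7% of the same genes. Over all 32851 promoters of that length in the table the shares were 0.387% and 16.1%. A match is a description of letters and not a site shown to be bound.

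**Figure D2:**
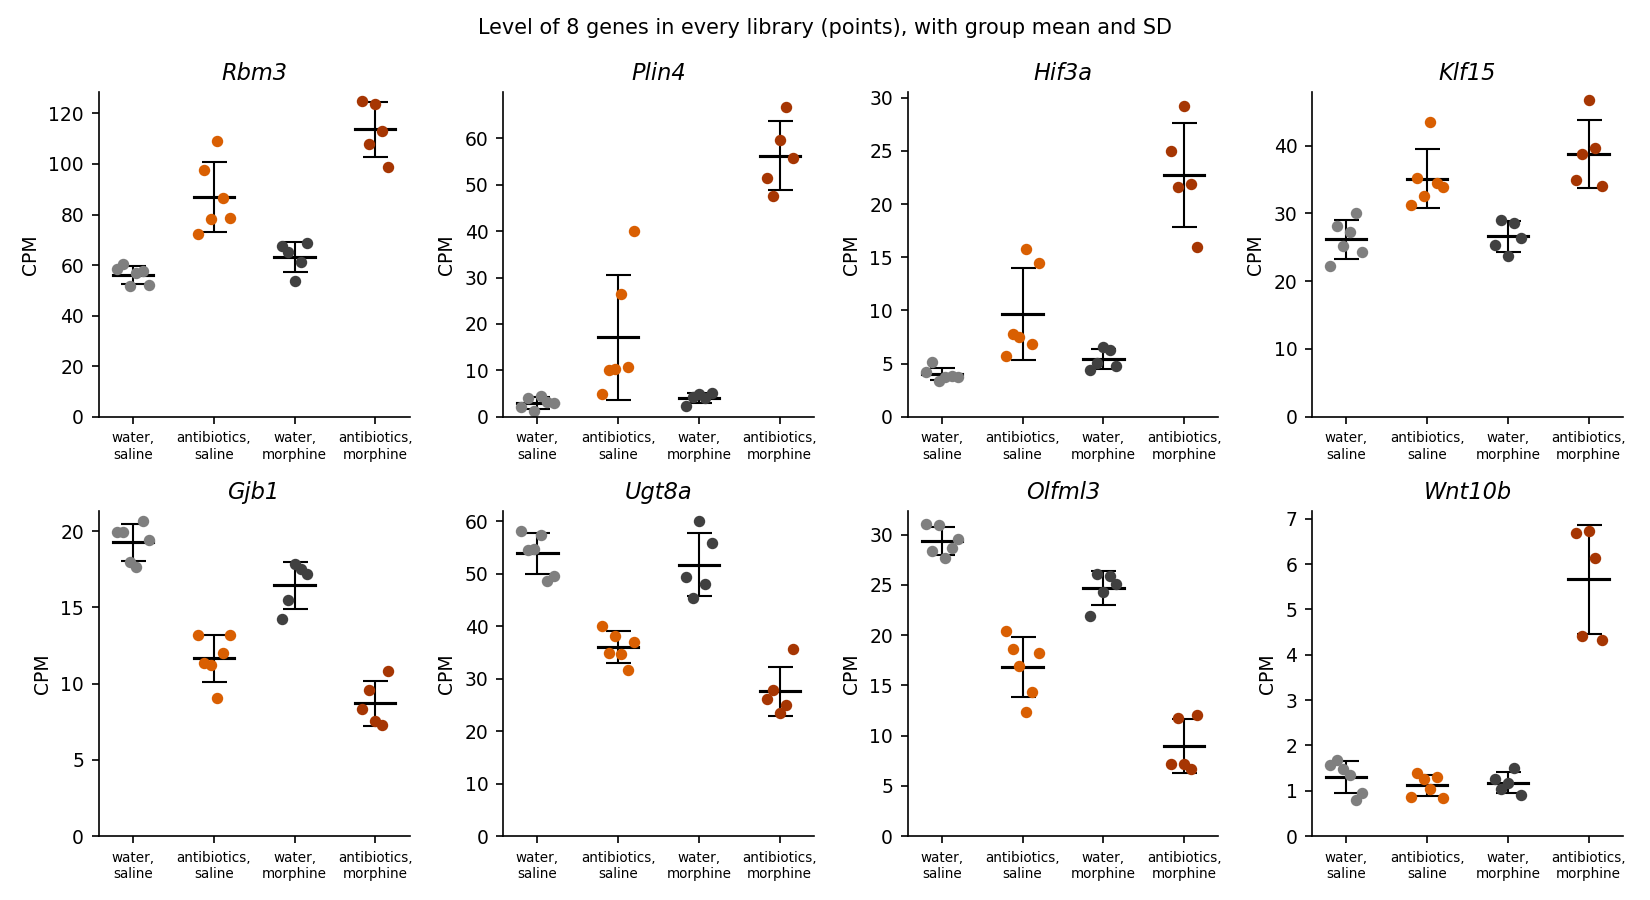
Level in CPM of 8 genes in every library (points), with group mean (bar) and SD (whiskers), for water and antibiotics under saline (n = 6 each) and morphine (n = 5 each). Rbm3, Plin4, Hif3a and Klf15 were higher and Gjb1, Ugt8a and Olfml3 lower with antibiotics with no overlap within an injection, whereas Wnt10b was high in the 5 libraries with antibiotics and morphine alone.

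The receptor gene itself was not called. Nr3c1, which encodes the glucocorticoid receptor, ran from 80.5 to 98.3 CPM in water and from 77.6 to 91.5 in antibiotic libraries (log2 change -0.03 ± 0.04, adjusted p = 0.552). Of 14 genes for receptors, chaperones and cofactors none rose and 3 fell (21.4%, against 10.8% of all tested genes called lower): Bag1, Stip1 and Fkbp4, at -0.16, -0.18 and -0.17. Bag1 and Stip1 are co-chaperones of the heat shock proteins, and Fkbp4 aids transport of the receptor. With the replicate number as a block, Stip1 (adjusted p = 0.149) and Fkbp4 (0.129) were not called.

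Rbm3, an RNA-binding protein induced by cooling, had the smallest p among the higher genes. Its water libraries held 51.8 to 60.3 CPM under saline, and 67.5, 65.3, 53.8, 61.1 and 68.7 under morphine. With antibiotics they held 72.1 to 109 under saline, and 125, 108, 124, 113 and 98.6 under morphine. No antibiotic library of either injection reached down to the water libraries, and the log2 change was 0.73 ± 0.07 (adjusted p = 5.19e-07). Cirbp, the related cold-inducible protein, rose by 0.46 ± 0.09 (adjusted p = 0.00119), with separate groups under morphine and an overlap under saline. The other called members of the cold and heat shock list fell, 9 of 16 tested, against 10.8% of all tested genes called lower. Cryab, a small heat shock protein of oligodendrocytes and astrocytes, went from 95.2 ± 11.2 to 69.4 ± 16.9 CPM (SD, n = 11 each; log2 change -0.47 ± 0.07), and Hsph1, a chaperone of the cytosol, from 412 ± 28.5 to 321 ± 56.3 (-0.37 ± 0.06; both adjusted p = 9.14e-05). With the replicate number as a block 5 members were called lower. Cryab did not overlap within either injection and Hsph1 overlapped under saline. The stress-inducible Hspa1a and Hspa1b were not called.

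Circadian clock genes rose in 8 of 19 cases and fell in none, against 9.31% and 10.8% of all tested genes, with a median of 0.11. The called members were Per1, Per3, Cry1, Cry2, Ciart, Bhlhe40, Nr1d1 and Nr1d2, which act as repressors in the clock's loop. Per1 was 150.7 ± 22.2 CPM with water and 202 ± 31.6 with antibiotics (0.41 ± 0.07, adjusted p = 0.000301). Ciart rose by 0.38 ± 0.06 (adjusted p = 0.000138) and Cry2 by 0.24 ± 0.04 (adjusted p = 0.000136), the latter with no overlap within either injection. The repressors Per2 (0.21, adjusted p = 0.131) and Bhlhe41 (0.11, adjusted p = 0.268) were not called, nor were the activators Arntl, Clock and Npas2. Per1 is also a member of the glucocorticoid-responsive list. With the share of counts outside genes as a covariate 5 clock genes were called.

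Of 20 activity-dependent early genes, which neurons transcribe within minutes of firing, Nr4a3 and Fosl2 were called, both higher, and none lower, 10% of the list against 9.31% of all tested genes called higher; the median of the list was 0.22. Nr4a3, an orphan nuclear receptor, ran from 3.04 to 16.8 CPM with water and from 15.2 to 28.1 with antibiotics and did not overlap within an injection (0.999 ± 0.21, adjusted p = 0.00212). Fosl2, a Fos-related transcription factor (0.41 ± 0.12, adjusted p = 0.0198), lost its call with a block for replicate number (adjusted p = 0.0847), with each library's slope of centred log2 CPM on log2 transcript length (the length slope, 0.0608) or its mean of cortical and septal markers (0.0663) as a covariate, and without the 2 libraries highest in Malat1 (0.0526). Fos (0.35) and Arc (0.11) did not pass the test.

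Myelin genes were lower with antibiotics. Of 28 tested, 19 fell and none rose, with a median of -0.25 (-0.30 under saline, -0.22 under morphine), against 10.8% of all tested genes called lower. In the contrast under morphine 12 members were called lower and 3 higher, where 18% of all tested genes were called in either direction. The 3 were Apod, Hapln2 and Tspan2, at 0.68, 0.31 and 0.24 (adjusted p = 0.00129, 0.0288 and 0.0366), against -0.06, -0.15 and -0.08 under saline. In bulk tissue a smaller number of cells of a type and less RNA per cell cannot be told apart, here and for every cell type below. The summed level of the list had medians of 8644 CPM with water and 7278 with antibiotics under saline, and of 7950 and 7297 under morphine, with ranges that overlapped under morphine (6888 to 8044 and 6820 to 7781).

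Gjb1, the connexin 32 of oligodendrocyte gap junctions, had the smallest p of all tested genes. Its water libraries held 17.6 to 20.6 CPM under saline, and 14.2, 15.5, 17.9, 17.5 and 17.2 under morphine. Its antibiotic libraries held 9.03 to 13.2 under saline, and 8.32, 9.61, 7.53, 7.30 and 10.8 under morphine. All 11 antibiotic libraries were below all 11 water libraries (log2 change -0.81 ± 0.07, adjusted p = 5.19e-07). Ugt8a, which makes the galactolipids of myelin, went from 52.9 ± 4.84 to 32.2 ± 5.73 CPM (-0.73 ± 0.07, adjusted p = 1.18e-06) and Trf, the iron carrier transferrin, from 397 ± 37.5 to 273 ± 38.6 (-0.54 ± 0.05, adjusted p = 1.21e-06). Car2, a carbonic anhydrase, and Gpr37, a receptor of maturing oligodendrocytes, fell by 0.42 and 0.37 on the log2 scale. Ugt8a, Trf, Car2, Gpr37 and Mag, an adhesion molecule of the innermost myelin layer, did not overlap within either injection. Mbp, which compacts the myelin membrane, was 2545 ± 273 CPM with water and 2446 ± 117 with antibiotics (SD, n = 11 each; -0.05 ± 0.04, adjusted p = 0.420), and Mobp (-0.01) and Mal (-0.05) did not pass the test. Mag, Mobp, Mal and Mbp were chosen after their values were seen.

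The precursor and newly formed oligodendrocyte list fell in 9 of 16 cases and rose in 1, against 10.8% and 9.31% of all tested genes. The list median was -0.20. Olig2 and Olig1, transcription factors that specify the lineage, fell by 0.52 ± 0.06 and 0.34 ± 0.05 on the log2 scale (adjusted p = 1.39e-05 and 9.43e-05), with no overlap within either injection. Bcas1 and Enpp6, which mark newly formed cells, fell by 0.32 and 0.44. Pdgfra, the growth factor receptor of the precursors, was called at -0.13. The member that rose was Vcan, a matrix proteoglycan, at 0.23 ± 0.06 (adjusted p = 0.00864; 0.0504 with the replicate number as a block).

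Genes of homeostatic microglia fell in 19 of 24 cases and rose in 1, against 10.8% and 9.31% of all tested genes. The microglia genes had a median of -0.30 (-0.25 under saline, -0.37 under morphine). Their summed level ran from 992 to 1075 CPM with water and from 812 to 970 with antibiotics under saline. Under morphine it ran from 875 to 977 and from 667 to 797. Neither pair of ranges overlapped.

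Olfml3, a secreted glycoprotein that is a marker of resident microglia, fell most. Its water libraries held 27.6 to 31.1 CPM under saline, and 21.9, 26.1, 24.3, 25.9 and 25.1 under morphine. Its antibiotic libraries held 12.3 to 20.4 under saline, and 7.15, 11.8, 7.13, 6.68 and 12.1 under morphine. Every antibiotic library was below every water library, and the log2 change was -1.09 ± 0.12 (adjusted p = 4.31e-06). Fcrls, an Fc receptor-like marker, fell by 0.83 ± 0.11 (adjusted p = 2.66e-05), P2ry13, a purine receptor, by 0.63 ± 0.08 (adjusted p = 1.75e-05) and Itgam, the integrin chain CD11b, by 0.49 ± 0.06 (adjusted p = 2.17e-05), all on the log2 scale. The fractalkine receptor Cx3cr1 and Tmem119, chosen after their values were seen, fell by 0.37 ± 0.05 and 0.32 ± 0.06. The complement genes were lower too, with C1qa at -0.38, C1qb at -0.32 and C1qc at -0.16. Cd53, Gpr34, Siglech and Sall1 were not called.

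Other immune lists did not share a direction with each other. Of 7 tested genes of leukocytes and perivascular macrophages, Itgad rose and Ptprc fell, and the T cell marker Cd3e was below the filter. Those calls were 28.6% of the list, against 20.1% of all tested genes called in either direction. Itgad, the integrin chain CD11d, was close to its detection limit in water libraries, with 0 to 8 counts each. Antibiotic-saline libraries held 4 to 10 counts and antibiotic-morphine libraries 35 to 46, that is 2.53 to 3.65 CPM. The additive log2 change of Itgad was 2.91 ± 0.36 (adjusted p = 1.39e-05). Its passage of the low-count filter rested on the antibiotic-morphine libraries, where it was high, so this p-value is no separate support for a change under both injections. Fitted with edgeR on saline libraries alone the change was 1.63 and was not called (adjusted p = 0.145). Ptprc, the pan-leukocyte antigen CD45 that microglia also carry, fell by 0.50 ± 0.13 (adjusted p = 0.00864). Of 18 innate sensors and adaptors Tlr7, a sensor of single-stranded RNA, and Tbk1, a kinase of the interferon pathway, were called higher, at 0.46 ± 0.12 and 0.15 ± 0.04, and none lower. That was 11.1% of the list, against 9.31% of all tested genes called higher. Tbk1 was not called with a block for replicate number (adjusted p = 0.116); Tlr2, Tlr4 and Myd88 were not called. Of 19 interferon-stimulated and MHC class I genes 4 were called lower, among them Isg15, Psmb9 and H2-K1, and none higher. That was 21.1% of the list, against 10.8% of all tested genes called lower. Within it 15 members were below 0 and 4 above, with a median of -0.17. Without antibiotic-morphine library 4 the number called lower was 2, and with the replicate number as a block it was 1.

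**Figure D3:**
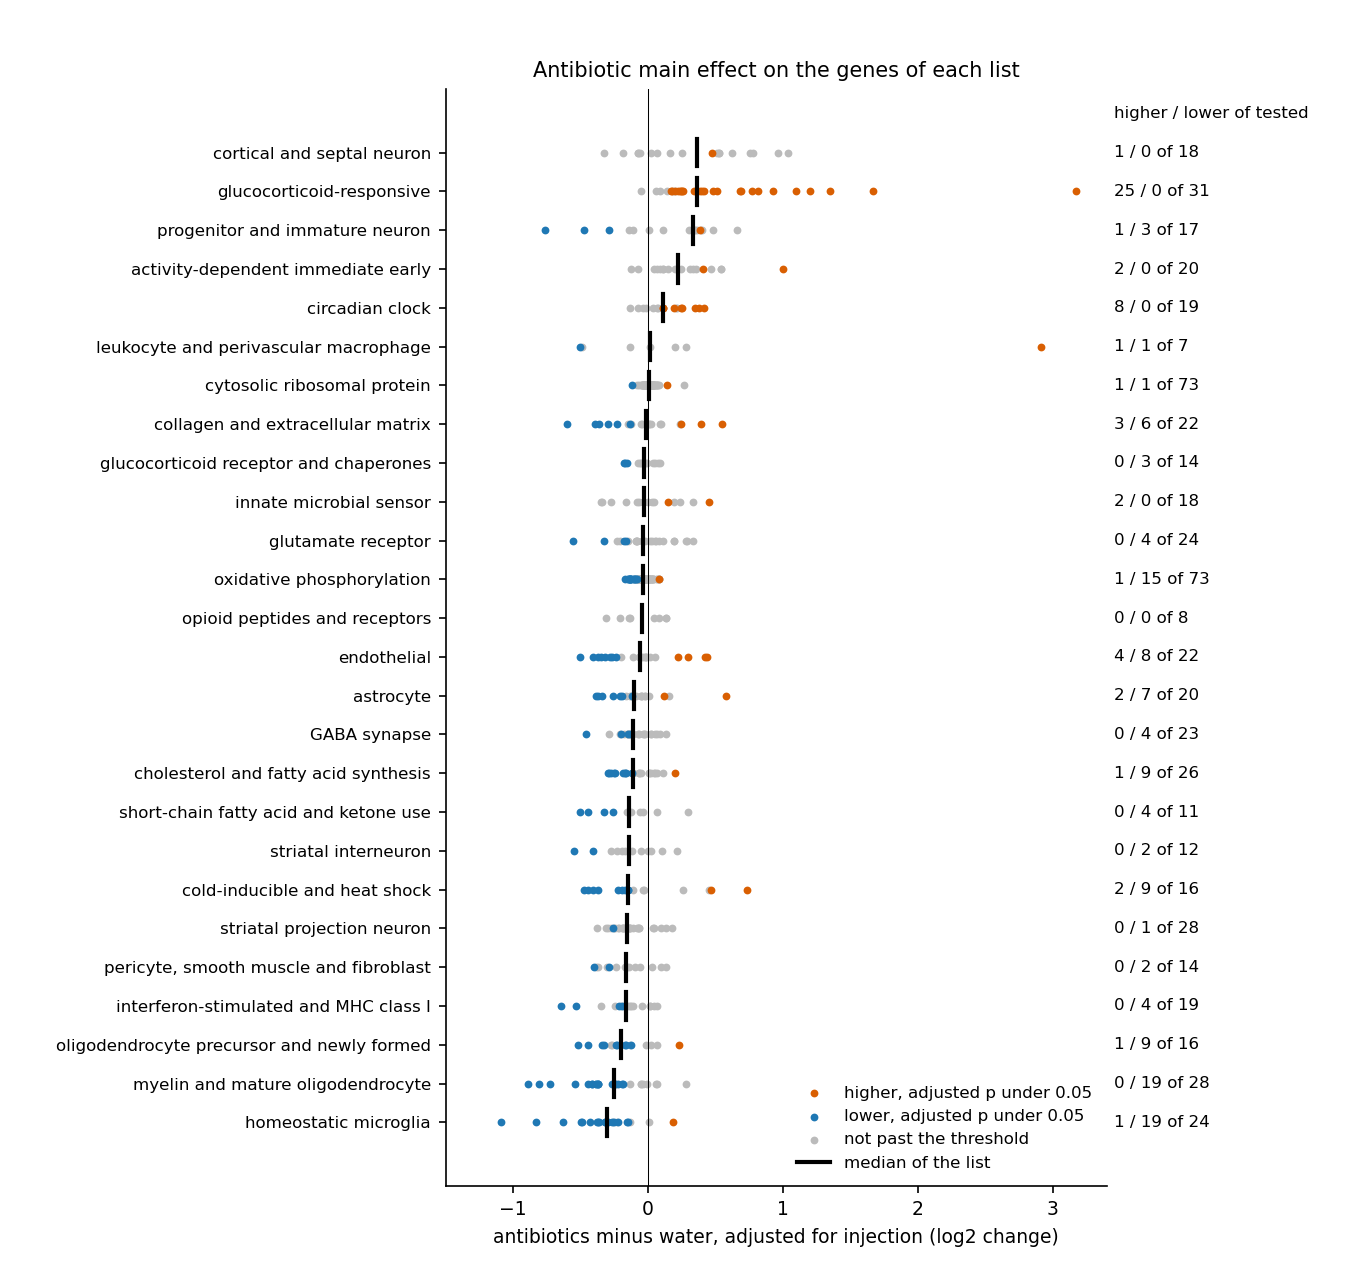
Log2 change with antibiotics, adjusted for injection, of every tested gene in each of 26 lists with at least 5 tested members (points, coloured by call; black bars are list medians), ordered by median. The glucocorticoid-responsive list lay to the right of 0 with 25 of 31 members called, and the microglia and myelin lists lay to the left with 19 of 24 and 19 of 28 called.

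Astrocyte genes split. Of 20 tested, 7 fell and 2 rose, against 10.8% and 9.31% of all tested genes, with a median of -0.10. Aqp4, the water channel of astrocyte endfeet, went from 69.8 ± 6.13 to 54.2 ± 6.45 CPM (SD, n = 11 each; -0.37 ± 0.06, adjusted p = 0.000170). Slc7a10, a serine transporter, and S100b, a calcium-binding protein, fell by 0.38 and 0.34 on the log2 scale. The risers were Gjb6, connexin 30, at 0.58 ± 0.14 (adjusted p = 0.00543), and Cpe, a peptide-processing enzyme also made by neurons, at 0.12 ± 0.03 (adjusted p = 0.0185; 0.131 with the replicate number as a block). Gfap, the filament protein that reactive astrocytes raise, was not called (-0.09), nor were the glutamate transporters Slc1a2 and Slc1a3.

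Endothelial genes moved in both directions, 8 lower and 4 higher of 22 tested, against 10.8% and 9.31% of all tested genes. Lower were Emcn, a sialoglycoprotein of venous endothelium (-0.50 ± 0.08, adjusted p = 0.000186), Itm2a (-0.37 ± 0.06, adjusted p = 0.000136), the junction gene Cdh5 (-0.35 ± 0.07) and the receptor genes Kdr, Flt1, Tek, Tie1 and Eng. Higher were Vwf, the von Willebrand factor (0.42 ± 0.09, adjusted p = 0.00259), and 3 transport genes of the blood-brain barrier. These were the lipid transporter Mfsd2a (0.44 ± 0.10), the efflux pump Abcg2 (0.30 ± 0.07) and the glucose transporter Slc2a1 (0.22 ± 0.05), named after their values were seen. Mfsd2a differed between injections, with 0.12 under saline and 0.80 under morphine (difference adjusted p = 0.0173). Slc2a1 is also in the glucocorticoid-responsive list. The pan-endothelial genes Pecam1 and Cldn5 were not called, nor were the barrier transporters Slco1a4 and Abcb1a of the same list. Among 14 pericyte, smooth muscle and fibroblast genes Vtn and Kcnj8 fell, by 0.40 and 0.29, and none rose. That was 14.3% of the list, against 10.8% of all tested genes called lower. Of 22 matrix genes 6 fell and 3 rose, against 10.8% and 9.31% of all tested genes. Serpinh1, the collagen chaperone, fell by 0.60 ± 0.10 on the log2 scale (adjusted p = 0.000405), with -0.29 under saline and -0.98 under morphine (difference adjusted p = 0.0480). The perlecan gene Hspg2 and the basement membrane gene Nid1 fell by 0.40 and 0.36, while the fibrillar collagen Col5a1 rose by 0.55 ± 0.13. Among the 3 tested markers of erythrocytes and choroid plexus Alas2, which starts heme synthesis in erythroid cells, was called lower (-0.70 ± 0.20, adjusted p = 0.0184) and lay below the water mean of its injection in all 11 antibiotic libraries, and Kl (0.26) and Clic6 (0.10) were not called. That 1 call was 33.3% of the tested markers, against 10.8% of all tested genes called lower. The call of Alas2 was lost without the injection term (adjusted p = 0.0931) and with a block for replicate number (0.186).

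Few neuronal identity genes were called, and their values spread widely. Of 28 striatal projection neuron markers only Gnal was called, at -0.26 ± 0.06 (adjusted p = 0.00407). That was 3.57% of the list, against 10.8% of all tested genes called lower. Gnal encodes the G protein that couples dopamine and adenosine receptors to cyclic AMP. The list median was -0.15, with 23 of 28 members below 0 and 7 lower at an unadjusted p under 0.05. Drd1 (listed as Drd1a) was 0.08 lower on the log2 scale (adjusted p = 0.656), Drd2 0.28 lower (0.113), Penk 0.14 lower (0.364) and Pdyn 0.31 lower (0.0692). Among libraries antibiotic-saline library 5 had the lowest list mean, -0.67 against -0.09 for the next library of its group, and the highest mean of cortical and septal markers of all 22, 1.24. The part of that library's make-up in these values was not tested. Adora2a, the adenosine receptor of the indirect pathway (-0.38), and Adcy5, the adenylyl cyclase of these neurons (-0.30), had adjusted p = 0.0599 and 0.0655. With DESeq2 Pdyn, Adora2a and Adcy5 passed the threshold (adjusted p = 0.0314, 0.0399 and 0.0318), and with limma-voom Adora2a and Adcy5 did (0.0365 and 0.0438). Pdyn also passed without antibiotic-saline library 3 (0.0350) or water-morphine library 4 (0.0193), and Adora2a without antibiotic-saline library 1, 3 or 5 or water-morphine library 4 (0.0329 to 0.0473). Adcy5 passed without water-saline library 8, antibiotic-saline library 3, water-morphine library 4 or antibiotic-morphine library 2 (0.0271 to 0.0494). Of the 8 opioid peptide and receptor genes 0 were called by edgeR, against 20.1% of all tested genes, a share at which few calls would be looked for among 8 genes. Only 1, Pdyn, had an unadjusted p under 0.05, and DESeq2 called 1. Of 12 interneuron genes Slc18a3, the vesicular acetylcholine transporter, and Th, tyrosine hydroxylase, were lower, at -0.55 ± 0.15 and -0.41 ± 0.12. Each lost its call with the length slope as a covariate (adjusted p = 0.0562 and 0.0708). They were 16.7% of the list, against 10.8% of all tested genes called lower. For the 18 cortical and septal markers the median of the library means was -0.01 in water and 0.18 in antibiotic libraries under saline. Under morphine it was -0.64 and 0.59, and the ranges overlapped within each injection. The part of tissue make-up in the antibiotic effect was not tested. The cortical and septal list had a median log2 change of 0.36 and a summed level between 551 and 2380 CPM. Its 1 call was Zic1 (0.48 ± 0.17, adjusted p = 0.0488), 5.56% of the list against 9.31% of all tested genes called higher. That call was lost when any of 14 libraries was left out: all 6 of water-saline, antibiotic-saline 2, 4 and 5, water-morphine 5 and 6, and antibiotic-morphine 3, 4 and 5 (adjusted p from 0.0571 to 0.0833).

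Among transmitter receptors and synapse genes 4 of 24 glutamate receptor and 4 of 23 GABA genes were lower and none higher. These were 16.7% and 17.4% of the lists, against 10.8% of all tested genes called lower. Grm3, a metabotropic receptor of astrocytes and neurons, fell from 111 ± 15.2 to 75.9 ± 12.5 CPM (-0.56 ± 0.08, adjusted p = 0.000147). Grm7 and Gria4 were also called. Gabra2, a subunit of the GABA-A receptor, fell by 0.46 ± 0.08 (adjusted p = 0.000703), and the subunit of the GABA-B receptor Gabbr1 by 0.13 ± 0.03 (adjusted p = 0.00800). Gabrb1, another GABA-A subunit, lost its call when any of 14 libraries was left out singly (adjusted p from 0.0503 to 0.0883, the latter without water-morphine library 6). Housekeeping genes stayed near 0, with Actb at -0.04 ± 0.03 and Gapdh at 0.02 ± 0.03. Ribosomal protein genes were flat, with 1 higher (Rpl14) and 1 lower (Rpsa) of 73 and a median of 0.01; Rpsa was no longer called with upper-quartile scaling (adjusted p = 0.0507) or without any of 14 libraries taken singly (adjusted p up to 0.0886, without water-morphine library 2). Genes of oxidative phosphorylation fell in 15 of 73 cases and rose in 1 (Cox4i1), against 10.8% and 9.31% of all tested genes, with a median of -0.04. Every called change was small, from -0.17 for Uqcrb to 0.08. The count of lower genes moved with the model, to 3 without the injection term, 4 in morphine libraries alone, 9 with the replicate block, 6 without the 2 libraries highest in Malat1 and 9 without antibiotic-morphine library 3.

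**Figure D4:**
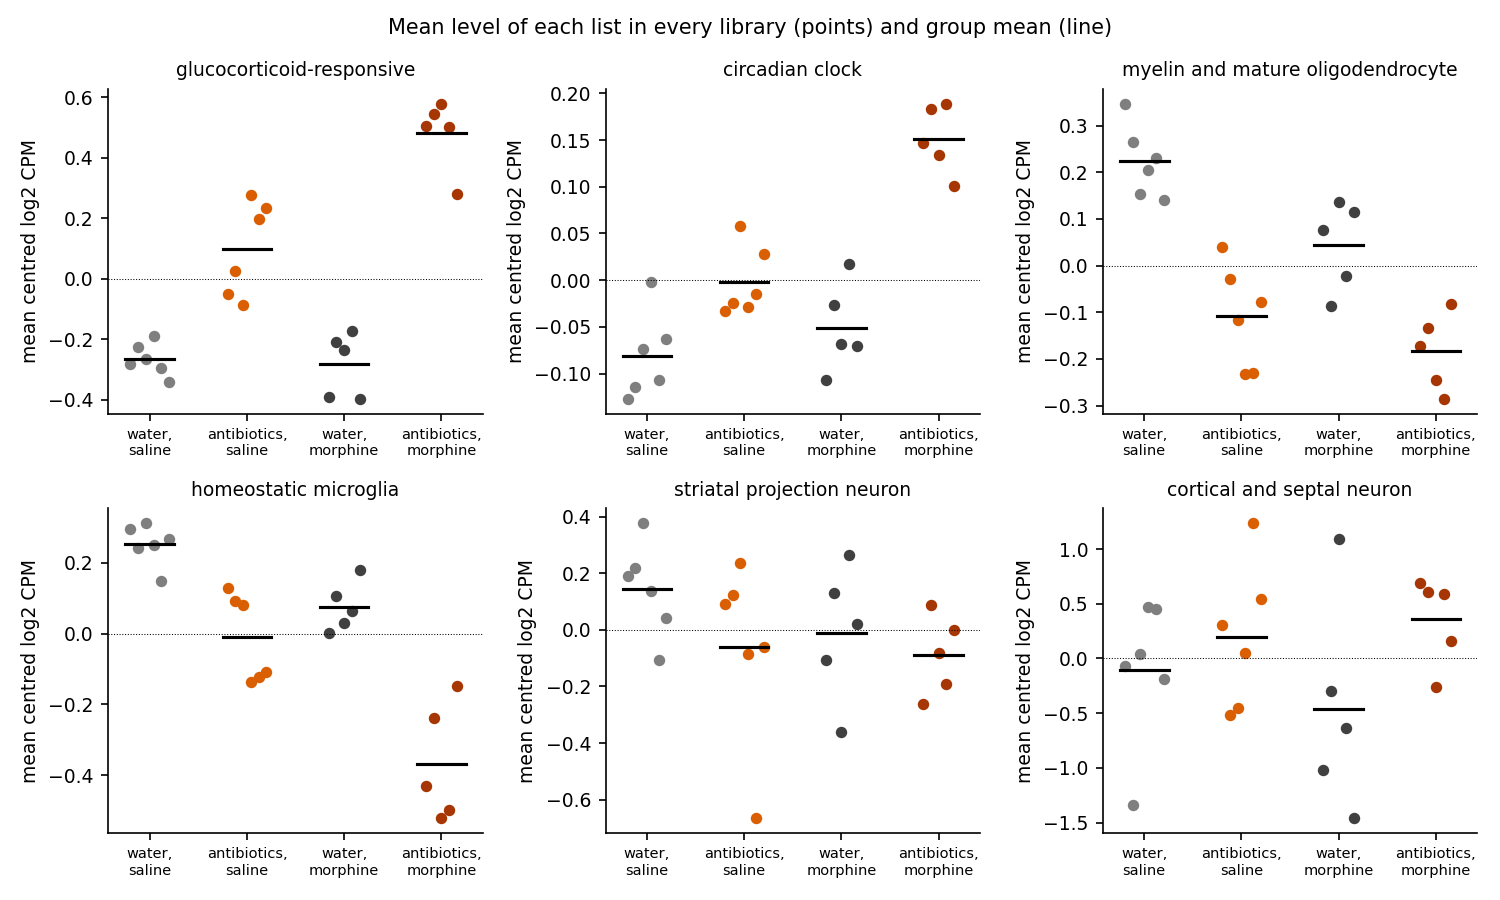
Mean centred log2 CPM of 6 lists in every library (points), with the group mean (line), under water and antibiotics with saline (n = 6 each) and morphine (n = 5 each). Glucocorticoid-responsive genes were higher in all antibiotic libraries of each injection and microglia genes lower, while the projection neuron and cortical lists spread widely within groups, from -0.67 to 0.38 and from -1.46 to 1.24.

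Part of the lipid and fuel genes fell. Of 26 cholesterol and fatty acid synthesis genes 9 fell, 1 (Lss, 0.20) rose and 16 were not called, against 10.8% of all tested genes called lower, with a median of -0.11. Dhcr7 and Nsdhl, late enzymes of sterol synthesis, fell by 0.26 ± 0.04 and 0.28 ± 0.06 on the log2 scale (adjusted p = 0.000294 and 0.00232), the desaturase Scd2 by 0.17 ± 0.03 (adjusted p = 0.000511) and the elongase Elovl6 by 0.29 ± 0.07 (adjusted p = 0.00355). Scd2 did not overlap within either injection. In morphine libraries alone 4 of the genes were called lower. The transporters and enzymes through which short-chain fatty acids and ketone bodies are used fell in 4 of 11 cases and rose in none. The other 7 were not called. The called members were 36.4% of the list, against 10.8% of all tested genes called lower and 9.31% called higher. Acss1, the mitochondrial enzyme that activates acetate, ran from 37.6 to 52.2 CPM with water and from 19.6 to 40.3 with antibiotics (-0.50 ± 0.09, adjusted p = 0.000341), and its cytosolic counterpart Acss2 fell by 0.33 ± 0.06 (adjusted p = 0.00114). Oxct1, which activates ketone bodies, fell from 332 ± 15.5 to 279 ± 39.5 CPM (-0.26 ± 0.05, adjusted p = 0.000808). The monocarboxylate transporter Slc16a7, at -0.44 ± 0.14, lost its call without antibiotic-morphine library 4 (adjusted p = 0.0517). The receptors for short-chain fatty acids Ffar2 and Ffar3 did not pass the low-count filter.

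Several of the leading genes belong to none of these lists. Higher were Spaca6, a sperm-egg fusion gene of low level here (6.17 to 8.86 CPM with water, 8.23 to 12.99 with antibiotics; 0.52 ± 0.06, adjusted p = 4.31e-06), Adipor2, an adiponectin receptor (0.47 ± 0.06, adjusted p = 1.62e-05), and Rapgef1, an exchange factor for Rap GTPases (0.26 ± 0.03, adjusted p = 1.53e-05). Spaca6 and Rapgef1 did not overlap within either injection. Pla2g3, a secreted phospholipase, rose by 1.22 ± 0.15 and Ovgp1, an oviduct glycoprotein gene, by 0.98 ± 0.14 from low levels (means of 1.36 and 3.26 CPM with water). Other large changes were also found at low levels: Gabrr2 (1.72 ± 0.29), the chemokine Ccl17 (1.62 ± 0.27) and Insl6 (1.55 ± 0.31). Lower were Tmem88b, a membrane protein of oligodendrocytes (84.1 ± 8.45 to 59.6 ± 7.49 CPM; -0.50 ± 0.05, adjusted p = 1.59e-06), and the netrin receptor Unc5b (57.8 ± 4.17 to 37.9 ± 7.42 CPM; -0.62 ± 0.06, adjusted p = 2.31e-06). Micall1, Cdc42ep1, Tmem98 and Chid1 fell by 0.41, 0.51, 0.57 and 0.30 on the log2 scale, all without overlap within either injection. The largest falls named were Ly6g6f (-1.37 ± 0.28), the histone gene Hist1h2be (-1.17 ± 0.19), Olfml3, Ninj2 (-1.003 ± 0.18), the oligodendrocyte protease Klk6 (-0.99 ± 0.15) and Procr (-0.97 ± 0.27). Ly6g6f and Procr were at or below 1.30 CPM in every library.

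For a few called genes the additive value described neither injection well. Wnt10b, a secreted Wnt ligand, had 0.79 to 1.68 CPM in water-saline, 0.85 to 1.40 in antibiotic-saline and 0.91 to 1.51 in water-morphine libraries, and 6.69, 4.42, 6.74, 6.14 and 4.33 in the 5 libraries with antibiotics and morphine. Its additive change of 1.16 ± 0.29 (adjusted p = 0.00715) was made of -0.22 ± 0.22 under saline and 2.25 ± 0.20 under morphine, and it was not called with a block for replicate number (adjusted p = 0.0612). The difference was 2.47 ± 0.30 (adjusted p = 0.000313). Fabp7, which binds fatty acids in astrocytes and progenitor cells, changed by -0.26 ± 0.11 and -1.40 ± 0.12 (difference -1.15 ± 0.16, adjusted p = 0.00163). Stxbp4 (-0.11 and -0.83) and Pycrl (-0.05 and -0.62) had the same pattern, and Pcolce2 had -0.11 and 1.18, with an additive call (adjusted p = 0.0353) that was lost without antibiotic-saline library 6, any of the 5 water-morphine libraries or antibiotic-morphine library 1, 3, 4 or 5 (adjusted p up to 0.0742). Tubb2b, a tubulin of growing neurites, fell under both, at -0.25 and -0.75 (difference adjusted p = 0.0386). In the progenitor and immature neuron list, which holds Fabp7, Tubb2b and Nes as its lower calls, Sox11 rose by 0.38 ± 0.08 (adjusted p = 0.00294) and 13 of 17 members were not called. The called members were 23.5% of the list, against 20.1% of all tested genes, and the list median was 0.33. Nes lost its call without water-saline library 6, water-morphine library 5 or antibiotic-morphine library 1 or 3 (adjusted p from 0.0501 to 0.0548).

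The share of genes called varied with level, and higher and lower genes differed in median transcript length. In 3 equal classes of mean expression 14.3%, 22.8% and 23.3% of genes were called from low to high, with median sizes of 0.44, 0.22 and 0.16 on the log2 scale. The longest transcript had a median of 3852 nucleotides for higher genes and 2863 for lower genes, against 3259 for all 13897 tested genes with a length. A library's slope of expression on transcript length, both on the log2 scale, averaged -0.01 with water and 0.01 with antibiotics (exact permutation p = 0.0592, adjusted 0.118). The difference was 0.033 under saline and 0.005 under morphine. Group means were -0.051 (water) and -0.018 (antibiotics) under saline, and 0.038 and 0.044 under morphine. With that slope as a covariate 2430 genes were called, 2149 of them among the 2931. With the share of counts outside genes as a covariate 2224 were called, 2007 of them among the 2931. With each library's mean of cortical and septal markers as a covariate 2753 were called, 2252 of them among the 2931.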

How the data were processed

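RNA of the nucleus accumbens was extracted with TRIzol and copied to cDNA with the SMARTer kit from total RNA, per the labels' protocols; another label names polyA RNA. The authors deposited raw read counts per gene, made after alignment with STAR 2.4.0, per the submitters' processing notes, which also list FastQC and edgeR. Build, annotation and strand setting: not given in the sources used here. Overlapping, antisense and near-identical genes are therefore uncertain. Summary entries, 20.6% to 26.4% of a library's counts, were removed. Total counts ran from 11789713 to 19755139 per library.

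Groups came from the sample titles. Of 24061 genes 14564 passed edgeR's filterByExpr, were scaled by TMM and were fitted with robust quasi-likelihood in edgeR 4.0.16 (R 4.3.3) with antibiotic and injection as additive terms. Contrasts within injections and their difference came from a 4-group fit. P-values are two-sided and Benjamini-Hochberg adjusted over all tested genes, and a gene was called at under 0.05. CPM values were computed with TMM factors, with a prior count of 2 where log2 values are given. Library measures were compared by exact permutation within injection (232848 rearrangements). On counts simulated for 14564 genes, 200 of them changed, 92% of those changed by 1.5-fold were recovered, with 8 false calls. Of those changed by 1.25-fold 50% were recovered. In the data 72.2% of the 2931 called genes changed by less than 1.25-fold. No pair of libraries of 1 group had the same counts within sampling noise.

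Replicate numbers recur between groups. Of 8 same-numbered pairs 4 had correlated deviations over 0.1 (range -0.25 to 0.35), so the numbers were not taken as pairs. Alternatives used DESeq2 1.42.0, limma 3.58.1 and sva 3.50.0.

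The comparison, gene lists and rule for naming genes were chosen with earlier results of these data known. The rule took the 12 genes with the smallest p in each direction, the 6 largest changes in each direction, the 6 called genes with the smallest p for the difference between injections, the 4 smallest p in each list, and 8 reference genes, leaving out clone and predicted names. The 3 genes with printed promoters were added, and other list members named were chosen after their values were seen. Promoters and coordinates are from RefSeq (GRCm38.p6). The 24 tested genes whose names a spreadsheet had turned into dates are counted but not named. Some genes that enter the counts are not reported here by name.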

Additional observations from a re-analysis of the deposited data

Results flagged for a closer look

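In 128 groups of 5 or 6 libraries examined, 10 held a library far from the others of its group (7.81%), and chance alone marks about 1 group in 20. The nuclear RNA Malat1 was far higher in single libraries: 2463 CPM in antibiotic-saline library 6 (next 368), 1007 in antibiotic-morphine library 4 (next 492) and 396.4 in water-saline library 6 (next 239.7). Among genes named for their p, Itgad reached 0.706 CPM in water-saline library 8 (next 0.251), Klf15 43.5 in antibiotic-saline library 4 (next 35.2), Pla2g3 2.15 in water-morphine library 6 (next 1.498) and Rasd1 7.02 in water-saline library 5 (next 5.84). The mean of glucocorticoid-responsive genes had a lowest antibiotic-morphine value of 0.28 (next 0.50). The cortical and septal mean was -1.34 in water-saline library 4 (next -0.18), and the projection neuron mean was -0.67 in antibiotic-saline library 5 (next -0.09).

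For 12 described genes the antibiotic change differed between injections, given as the log2 change under morphine minus that under saline with the adjusted p of the edgeR interaction. Higher under morphine were Wnt10b (2.47, 0.000313), Pcolce2 (1.29, 0.00992), Cdkn1a (1.26, 0.00826) and Mfsd2a (0.68, 0.0173). Arrdc2 (1.05), Map3k6 (0.96) and Fkbp5 (0.79) shared an adjusted p of 0.0206. Lower under morphine were Fabp7 (-1.15, 0.00163), Stxbp4 (-0.72, 0.00992), Serpinh1 (-0.69, 0.0480), Pycrl (-0.57, 0.0126) and Tubb2b (-0.50, 0.0386).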

How the results depend on the processing

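The additive effect called 2931 genes, and scalings, filters and the DESeq2 and limma-voom tests gave 2668 to 3126. Single left-out libraries gave 2379 to 3134. Without the 2 libraries highest in Malat1 the count was 2231, and without the injection term it was 2072. Fitted on saline libraries alone 62 genes were called (20 higher, 42 lower), where Pcolce2 (-0.10) and Wnt10b (-0.21) turned negative, and lower genes took a larger share (32.3% higher). At an adjusted p under 0.01 there were 1342 (588 higher, 754 lower), and 26 under saline, 1257 under morphine and 6 for their difference. With the replicate block the counts were 2101 for the additive effect, 105 under saline, 2003 under morphine and 10 for the difference; the numbers did not pair the libraries, as 2 of 8 pairs correlated best with their own number. The saline count of 205 was 100 with the share outside genes as covariate, 417 with DESeq2 and 74 without the 2 libraries highest in Malat1, and 48 to 409 with single libraries left out. The difference count of 68 was 185 with DESeq2 and 23 to 100 with single libraries left out. For the share outside genes the difference was 0.57 (exact permutation p = 0.0697) without those 2 libraries and 0.72 to 1.37 with single libraries left out. The length slope difference was 0.01 (0.0116; exact permutation p = 0.154) without those 2 libraries and 0.01 (0.0125) to 0.02 (0.0230) with single libraries left out, with an exact permutation p under 0.05 without water-saline 6, antibiotic-saline 1 or 2, water-morphine 4 or antibiotic-morphine 2. On saline libraries alone list calls fell to 4 of 31 glucocorticoid-responsive, 4 of 24 microglia and 12 of 28 myelin genes. Of 160 described genes 103 lost their call on saline libraries alone with the sign unchanged, and 2, Pcolce2 and Wnt10b, with the sign reversed. The call was lost for 19 on morphine libraries alone, 19 with the replicate block and 25 at an adjusted p under 0.01. It was lost for at most 12 under each other alternative (at most 7 for single left-out libraries). Between 55 and 160 genes kept their side of the threshold. The cause was not tested, beyond the smaller number of libraries or the stricter threshold. Alternatives for contrasts, for library measures and with the share outside genes were chosen after seeing the data.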
